A study of Mus musculus with 4 samples.

Results

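The miRNAs described here are known to be made without the nuclear enzyme Drosha: mmu-miR-320-3p, mmu-miR-484, mmu-miR-877-5p, mmu-miR-877-3p and mmu-miR-1224-5p (mmu-, for mouse, is left out of most names from here on). They were chosen by name, not by their values, from a table of small RNAs bound to the RISC (R-sRNAs) in mouse brain, and all reads that carried one of these 5 names were summed within each library. All 5 were found among the 1029 miRNA names of the table, and their reads fell on 417 of its 85704 sequences. The Ago proteins were pulled down with a GW182 peptide from cortex and hippocampus combined of BL6 mice (C57BL/6J males in the methods, with no transgene and no treatment), and the bound RNA of about 19 to 35 nt was sequenced (Ago-RP-Seq). Each age, 2 months and 18 months, had 2 libraries, and the study asked whether the RISC of the aging brain loses sRNAs with nontoxic seeds. The labels do not say whether a library came from 1 mouse or from several, so a p-value measures only the spread between these libraries. The values are CPM, that is reads scaled to 1000000 in each library.

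Most animal miRNAs are cut out of a long primary transcript by the Microprocessor, a complex of Drosha and DGCR8, and then trimmed to a duplex by Dicer. Some hairpins reach Dicer by another route. The precursors of miR-320 and miR-484 are known to form directly at a transcription start, so that a cap marks the 5′ end of the hairpin. A mirtron is a short intron that folds into a hairpin once it has been spliced out and debranched, so the spliceosome and not Drosha sets its ends. miR-877 and miR-1224 are mammalian mirtrons. Whichever route is used, the Ago protein keeps a single strand of the duplex, and bases 2 to 8 of that strand (the seed) select its targets.

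The mature sequences are shown because their first bases decide which seed the RISC uses. The seed is in capitals. Those of miR-484, miR-877 and miR-1224 are from RefSeq (GRCm38.p6), and that of miR-320-3p is its most abundant read in the deposited table, written in DNA letters.
miR-320-3p: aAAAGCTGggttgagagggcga
miR-484: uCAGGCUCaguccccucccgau
miR-877-5p: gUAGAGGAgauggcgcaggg
miR-877-3p: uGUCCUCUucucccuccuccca
miR-1224-5p: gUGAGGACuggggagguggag
No other miRNA tested shared bases 2 to 8 of its most abundant sequence with a member. Only the 456 miRNAs averaging at least 10 CPM were compared.

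The mirtrons could be checked against the annotation. The hairpins are printed below with the mature arms in capitals.
Mir877: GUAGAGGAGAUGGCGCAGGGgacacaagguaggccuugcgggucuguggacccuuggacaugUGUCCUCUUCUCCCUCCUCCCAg
Mir1224: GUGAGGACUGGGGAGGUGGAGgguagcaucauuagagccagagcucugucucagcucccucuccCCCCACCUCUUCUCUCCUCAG
The Mir877 hairpin lies on the minus strand of chromosome 17 from 35960730 to 35960814 (GRCm38), and these are also the first and last base of intron 12 of Abcf1, a gene of an ATP-binding cassette protein that acts in translation. Mir1224 lies on the plus strand of chromosome 16 from 20604452 to 20604536, exactly intron 22 of Vwa5b2. Both hairpins are 85 bases long, begin with the GU of a 5′ splice site and end with the AG of a 3′ splice site. In both, the 5p arm therefore starts at the first base of the intron. Of 1005 RefSeq hairpins searched, 16 started and ended within 3 bases of the ends of an annotated intron of their strand, and all 16 matched it to the base. Mir484, by contrast, lies on the plus strand of chromosome 16 from 14159626 to 14159692 with no intron at its ends, and its last part overlaps an exon of Marf1 on the opposite strand (14159674 to 14159862).
Mir484: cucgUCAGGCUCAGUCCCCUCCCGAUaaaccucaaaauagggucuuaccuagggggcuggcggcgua
The mature arm of miR-484 begins at base 5 of this hairpin.

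The 4 libraries were of like depth, with 9067007 to 11388999 reads behind the scale, and 3 reads were worth 0.263 to 0.331 CPM. Neuronal miRNAs (miR-124-3p, miR-128-3p, miR-9-5p and miR-138-5p) summed to 195684 to 208820 CPM at 2 months, against 178482 to 204748 CPM at 18 months, while miR-122-5p of liver had 5.01 to 7.11 CPM in the 4 libraries. All 2 endothelial, all 2 smooth muscle and all 3 myeloid and lymphoid miRNAs on the marker list were detected. Their summed levels were lower in both 18-month libraries, at 5422 to 8990 CPM against 11472 to 12243 CPM for endothelial cells, 4915 to 5033 CPM against 6415 to 6559 CPM for smooth muscle, and 2638 to 2723 CPM against 2963 to 3358 CPM for the myeloid and lymphoid list. Both smooth muscle miRNAs were lower, but of the endothelial list only miR-126a-3p and of the myeloid and lymphoid list only miR-150-5p was, while miR-126a-5p, miR-223-3p and miR-142a-3p overlapped between the ages. Of all 456 miRNAs tested, 41.4% were lower in both 18-month libraries. All other listed markers were detected too, and the liver miRNA was also lower in both 18-month libraries. The neuronal, oligodendrocyte, red blood cell and skeletal muscle lists overlapped between the ages. The part of these markers in the results below was not tested, and in tissue fewer cells of a type and less miRNA per cell cannot be told apart.

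At 2 months the members took up 0.237% (Wilson interval at 95% confidence, 0.234% to 0.239%) and 0.213% (0.210% to 0.215%) of all reads, and 0.257% (0.254% to 0.260%) and 0.190% (0.187% to 0.193%) at 18 months. PCR copies are not independent molecules, so all intervals of shares cover counting error only. The transcription-start miRNAs made up nearly all of this, since miR-320-3p and miR-484 together held 92.5% to 93.7% of the member reads of a library.

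miR-484, which is known to restrain the mitochondrial fission factor Fis1, was the most abundant member. It had 1114 and 1096 CPM at 2 months, against 1259 and 911 CPM at 18 months, and by its mean it ranked 104 among the 1029 miRNAs. The 18-month replicates lay on either side of the 2-month ones. miR-320-3p had 1073 and 871 CPM at 2 months, against 1149 and 849 CPM at 18 months, which gave rank 111. It was below miR-484 in every library, but the ranges of the pair overlapped. The other strand of its hairpin, miR-320-5p, was nearly absent from the RISC, with 0.667 and 0.351 CPM at 2 months, against 0.662 and 0.551 CPM at 18 months, which are 4 to 7 reads in a library.

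The mirtron strands were much rarer. The most abundant of them, miR-1224-5p, had 91.5 and 74.4 CPM at 2 months, against 76.9 and 65.4 CPM at 18 months, with the ages overlapping. miR-877-3p had 48.6 and 51.2 CPM at 2 months, against 51.9 and 48.8 CPM at 18 months, so its 4 libraries lay close together. miR-877-5p, the other strand of the same intron, had 38.4 and 32.8 CPM at 2 months, against 31.8 and 24.6 CPM at 18 months, and it was lower in both 18-month libraries. The ranges of these mirtron strands over the 4 libraries did not overlap each other, so their order, miR-1224-5p, miR-877-3p and miR-877-5p, was the same in every library. CPM counts reads and is not corrected for how well a given strand is ligated or amplified.

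**Figure D1:**
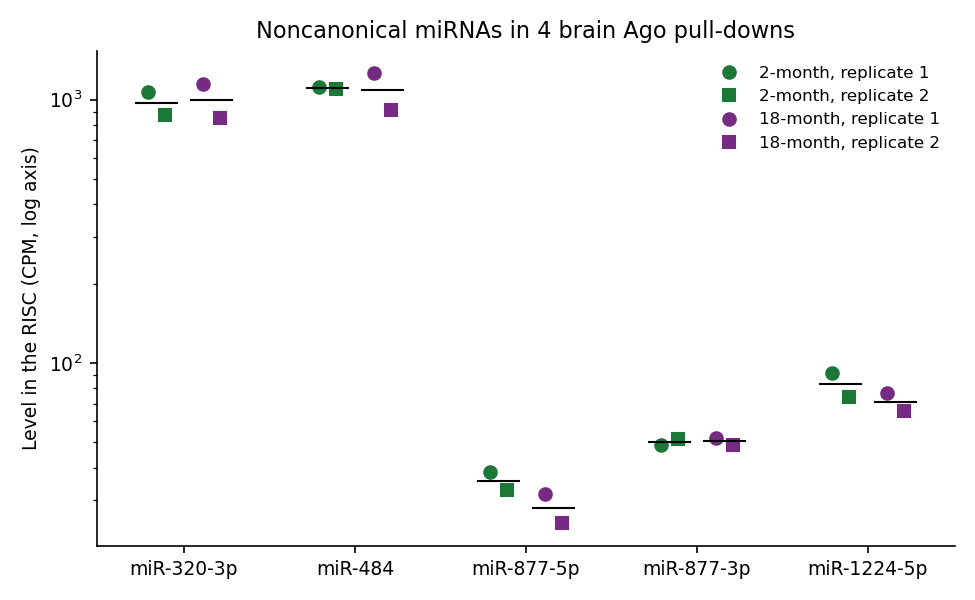
Level of each member in the RISC (CPM, log axis) in the 4 libraries; points are single libraries, and short lines are the means of an age (n = 2). miR-320-3p and miR-484 sit between 849 and 1259 CPM, and the mirtron strands between 24.6 and 91.5 CPM.

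Both strands of each mirtron were found with Ago. The ratio of miR-877-3p to miR-877-5p was 1.27 and 1.56 at 2 months, against 1.63 and 1.98 at 18 months. It was higher in both 18-month libraries (two-sided exact permutation test of the log2 ratio, p = 0.33, the smallest that 2 libraries against 2 allow). Of the 142 hairpins with both arms tested, 21.1% likewise had a 3p to 5p ratio that was higher in both 18-month libraries, and 36.6% had ratios that did not overlap in either direction. The ratio of miR-1224-5p to miR-1224-3p was 5.99 and 3.31 at 2 months, against 3.95 and 2.05 at 18 months, and here the ages overlapped (exact permutation p = 0.667).

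The 5′ end of a miRNA sets its seed, so the position of the first base was read from each sequence and given relative to the start of the most abundant sequence of the same name. miR-877-5p was uniform to the limit of its depth. All of its 403, 374, 336 and 223 reads (2-month replicates 1 and 2, then 18-month replicates 1 and 2) began at the first base of the Abcf1 intron, a share of 100% whose lower 95% Wilson bound was 98.3% to 99.1%. miR-1224-5p began at the first base of the Vwa5b2 intron in 99.2% and 98.6% of its reads at 2 months and in 100% in both 18-month libraries (exact permutation p = 0.33). Its other starts held only 2 to 7 reads each in a 2-month library. Counting only sequences averaging at least 1 CPM, the share was 100%. Whether start shares of other miRNAs separate the ages as often was not tested. Over the 456 miRNAs tested, the main start held a median of 96.6% of the reads (quartiles 86.5% and 98.2%), and 97.8% of them had a lower share than miR-877-5p and 95.6% a lower share than miR-1224-5p. By arm, the median was 97.8% over 208 5p arms and 94.4% over 242 3p arms. The authors' removal of rare reads can drop minor starts of scarce miRNAs, and its part in these shares was not tested. miR-484 had 97.9%, 98.0%, 97.7% and 97.5% of its reads at the main start. miR-320-3p had 94.8%, 95.2%, 94.2% and 94.9%, and a further 3.47% to 4.12% of its reads began 1 base later.

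miR-877-3p, the strand that Dicer and the 3′ splice site delimit, was split between starts 2 bases apart. The start given by RefSeq, base 63 of the hairpin, held 52.2% and 54.5% of the reads at 2 months, against 56.1% and 52.3% at 18 months. The start 2 bases further in held 46.3% and 42.4% at 2 months, against 42.6% and 46.8% at 18 months. Neither share separated the ages (two-sided exact permutation p = 0.667 for each), and only 3.95% of the tested miRNAs had a smaller share at their main start. The most abundant sequences of both forms are given here with bases 2 to 8 in capitals, in the DNA letters of the table.
early start: tGTCCTCTtctccctcctccca
late start: tCCTCTTCtccctcctcccagt
This single early sequence had 7.15 and 5.79 CPM at 2 months, against 9.27 and 6.40 CPM at 18 months. The single late sequence had 13.5 and 9.92 CPM at 2 months, against 13.0 and 14.7 CPM at 18 months. Both are 22 nt long, and the late one ends in a T that follows the last base of the intron. Over all sequences of a start the order was the other way in each library, with 25.4, 27.9, 29.1 and 25.5 CPM for the early form and 22.5, 21.7, 22.1 and 22.8 CPM for the late form (2-month replicates 1 and 2, then 18-month replicates 1 and 2).

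**Figure D2:**
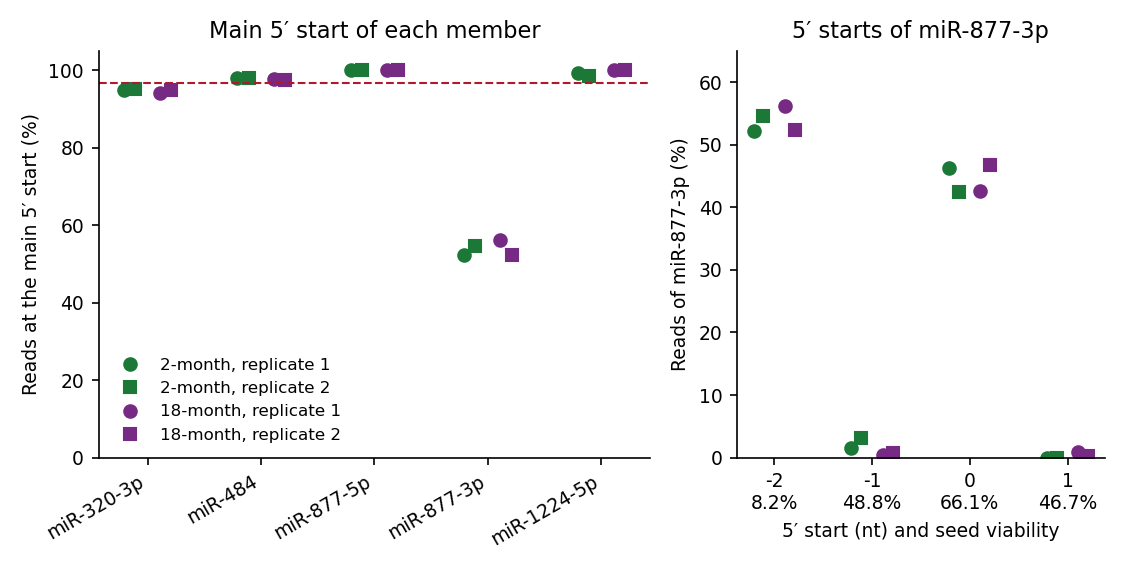
Left, share of each member's reads at its main 5′ start in the 4 libraries, with the median of 456 miRNAs (96.6%) as a dashed line. Right, share of miR-877-3p reads at each start, in nt from the start of its most abundant sequence, with the 6mer seed viability under each; the starts at -2 and 0 hold 42.4% to 56.1% of the reads, and the others at most 3.09%.

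The shift bears on the measure used in the study, 6mer seed viability. This is the mean viability of 3 mouse cell lines, in percent of the control, after transfection of a duplex that carries a given 6mer seed (bases 2 to 7), so that toxic seeds have low values. The early start of miR-877-3p exposes the seed GUCCUC, with a viability of 8.2%, and the late start exposes CCUCUU, with 66.1%. Weighted by reads, miR-877-3p had a mean viability of 35.6% and 34.0% at 2 months, against 33.4% and 35.7% at 18 months, with no separation of the ages (exact permutation p = 1.0), a value that neither of its main seeds has. miR-484 was close to it, at 33.9% to 34.0% in the 4 libraries, and nearly all of that came from its seed CAGGCU (34.3%), which 97.4% to 97.9% of its reads carried. The seed of miR-877-5p, UAGAGG, has a viability of 47.4%. Those of miR-320-3p (AAAGCU) and miR-1224-5p (UGAGGA) both have 54.3%, and their mean viabilities were 54.6% to 54.7% and 54.0% to 54.3%.

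The 3′ ends were compared with the RefSeq hairpins of miR-484, miR-877 and miR-1224. Each read was matched exactly to the hairpin from its 5′ end, over at least 15 bases, and what followed the match was counted as added. A base that equals the next base of the hairpin therefore counts as encoded, even if it was added. The authors' trimming of adapters and removal of rare reads act on these ends, and their part was not tested. Of these 4 strands miR-877-3p had the most added bases, where they ended 59.8% and 52.3% of the reads at 2 months, against 53.6% and 59.1% at 18 months. Of the reads of miR-877-3p, 44.7% and 36.7% at 2 months and also 39.9% and 44.1% at 18 months had uridines only as the addition, and 10.9% to 12.9% had adenosines only. A single added C or G was not counted on this strand, but the intron ends in CCCAG, so a C or G added before its last base can count as encoded. The ages overlapped in each of these shares (exact permutation p = 1.0 for the total). Over the 192 3p arms with a RefSeq hairpin the median share of reads with added bases was 14.1%. The Mir877 hairpin ends just after its 3p arm, so every base past that end counts as added. Where another hairpin runs on further, matching bases count as encoded, and the part of this in the comparison was not tested.

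The early and late forms of miR-877-3p differed at their 3′ ends as well. Among late-start reads, 60.2%, 45.7%, 58.5% and 64.3% (libraries in the same order) carried 1 U directly after the last base of the intron, and this made the strand 22 nt long. Among early-start reads the same ending held 8.65%, 7.23%, 8.44% and 5.63%. A further 28.2%, 20.8%, 31.8% and 25.1% of the early-start reads stopped 1 base short of the intron end with nothing added, which is also 22 nt. In each library the late form had the U ending more often than the early form had it. Early-start reads also carried additions at other ends. U added at any end was found on 22.7% to 27.4% of early-start and 49.8% to 65.2% of late-start reads. Any added base was found on 39.8% to 44.3% of early-start and 62.8% to 80.2% of late-start reads. The Abcf1 exon that follows begins with GTG, so a read that ran on into it would have a G there, and such reads were 0 of 1123 with the early start and 0 of 924 with the late start. The ages overlapped in the U ending of the late form, where replicates of an age were as far apart as 60.2% and 45.7% (exact permutation p = 0.667).

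On the 5p strands miR-877-5p and miR-1224-5p, additions of adenosines were more frequent than those of uridines. This did not hold for miR-1981-5p, the 5p strand of another intron, where 13.6% of the reads had added bases and 7.21% had uridines only. miR-877-5p had added bases on 39.2% and 38.0% of its reads at 2 months, against 41.4% and 42.6% at 18 months. Both 18-month values were higher (exact permutation p = 0.33), but the 95% Wilson intervals of the 4 libraries overlapped. They ran from 33.2% to 43.0% for the lowest value and from 36.3% to 49.2% for the highest. How often this share separates the ages over all miRNAs was not tested. The share of miR-877-5p is also sensitive to rare sequences, since it was 23.8% when only sequences averaging at least 1 CPM were counted. Additions of adenosines only made up 24.9% to 26.5% of all its reads, and those of uridines only 5.83% to 11.4%. miR-1224-5p had added bases on 22.5%, 21.1%, 22.9% and 21.9% of its reads, with 12.5% to 13.7% adenosines only and 4.88% to 7.91% uridines only. The median of 164 5p arms was 7.99%. On miR-484 uridines were more frequent among the bases counted as added, as on miR-877-3p. miR-484 had such bases on 20.7%, 19.2%, 17.0% and 19.3% of its reads, of which uridines only held 12.6% to 16.1% of all reads and adenosines only 1.13% to 1.27%. Its hairpin runs on with A after the mature end, so an A added there counts as encoded. The mature sequence with 1 more A had 62.9, 61.5, 93.7 and 52.8 CPM, against 115, 92.5, 93.6 and 77.4 CPM with 1 more U (libraries in the same order). Additions of A and U to the whole mature sequence therefore cannot be compared by these shares.

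**Figure D3:**
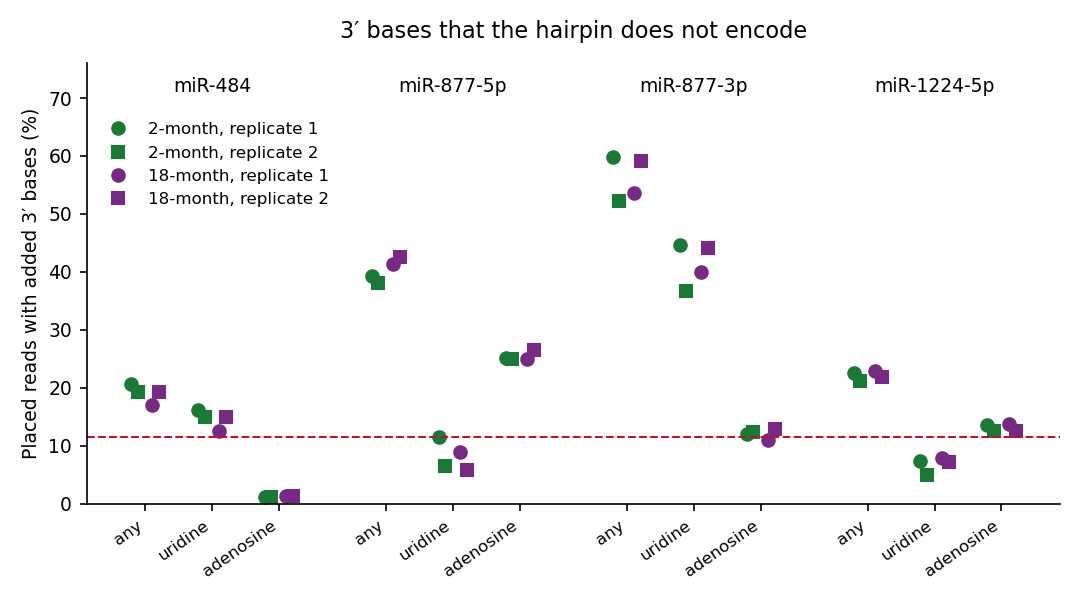
Share of reads (%) that end in bases the RefSeq hairpin does not encode, for 4 members in the 4 libraries: any addition, uridines only and adenosines only. The dashed line is the median of 362 miRNAs for any addition (11.4%); miR-877-3p reaches 52.3% to 59.8%, mostly by uridines, and miR-877-5p 38.0% to 42.6%, mostly by adenosines.

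For miR-320-3p the variants were read from the sequences alone. The 22 nt sequence printed above had 521 and 401 CPM at 2 months, against 537 and 383 CPM at 18 months, which was 46.7% of the reads of this miRNA. The same sequence with 1 more A had 93.8 and 80.2 CPM at 2 months, against 106 and 81.6 CPM at 18 months. With 1 more U it had 86.5 and 76.7 CPM at 2 months, against 100 and 75.5 CPM at 18 months. Extension by G gave 3.88 to 5.05 CPM and extension by C 0.662 to 1.99 CPM, so A and U were the usual next bases in every library. Reads of 22 nt made up 54.1% of miR-320-3p and 66.5% of miR-484, while miR-877-5p was spread over 20, 21 and 22 nt with 25.5%, 23.4% and 22.5%.

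None of the members passed the test for a change with age. With limma on log2(CPM + 1), 0 of 5 had an unadjusted p under 0.05, where 16.2% of the 456 miRNAs tested did (12.1% lower and 4.17% higher at 18 months), and 0 of 5 passed after Benjamini-Hochberg adjustment, where 0.219% did. edgeR and DESeq2 on the recovered reads also called 0 of 5 at an unadjusted p under 0.05. The median log2 change of the members was -0.05, beside -0.22 over all miRNAs tested, and 3 members had a negative and 2 a positive value, where 68.4% of all were negative. The shift of all miRNAs depends on the scale: after rescaling by the median of ratios the medians were 0.17 for the members and -0.01 for all.

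The log2 change of miR-320-3p from 2 to 18 months was 0.03 (SE 0.25, limma adjusted p = 0.955), with a 95% interval of 0.68-fold to 1.54-fold. For miR-484 it was -0.05 (SE 0.24, limma adjusted p = 0.929), with an interval of 0.65-fold to 1.44-fold, and the sign turned after rescaling (0.17). With 2 libraries an age, changes of any size within these intervals are compatible with the data.

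Among the mirtron strands, miR-877-5p had a log2 change of -0.33 (SE 0.26, limma adjusted p = 0.502) with an interval of 0.51-fold to 1.23-fold, and -0.13 after rescaling. It was the single member whose ages did not overlap, and 41.4% of all miRNAs tested were likewise lower in both 18-month libraries. The summed endothelial, smooth muscle and myeloid and lymphoid lists given above were lower in the same libraries. miR-877-3p from the same intron had a log2 change of 0.01 (SE 0.22, limma adjusted p = 0.975) and an interval of 0.70-fold to 1.46-fold. For miR-1224-5p the value was -0.22 (SE 0.23, limma adjusted p = 0.627), with an interval of 0.58-fold to 1.28-fold, which was the median of all miRNAs, and -0.01 after rescaling. Fold intervals are on the scale of CPM + 1.

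**Figure D4:**
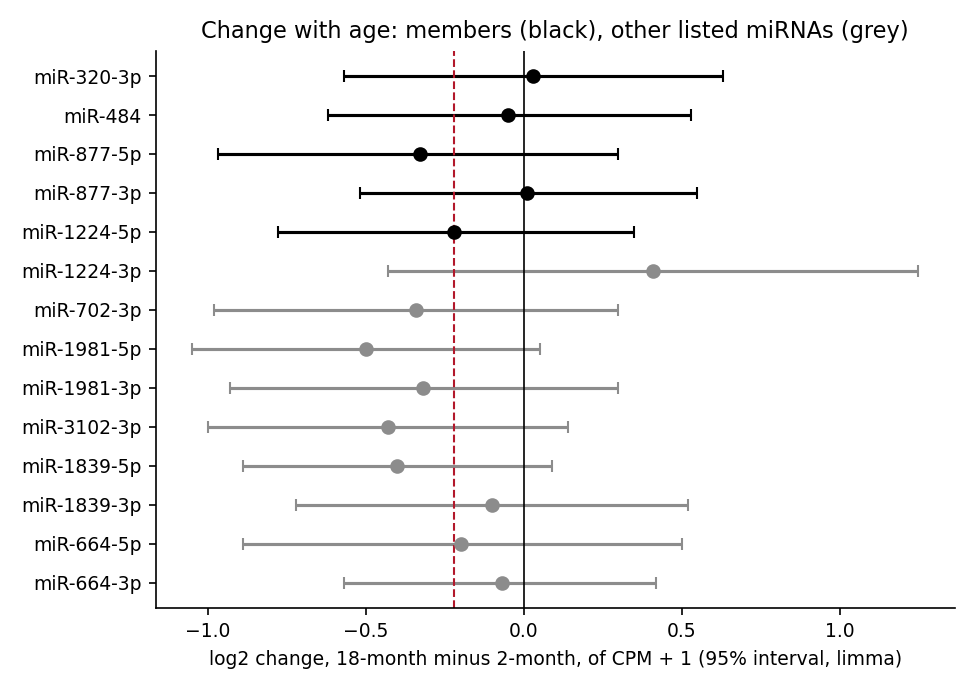
Log2 change of CPM + 1 from 2 to 18 months with the 95% interval of the limma fit (2 libraries an age), for the 5 members in black and 9 other listed miRNAs in grey. The dashed line is the median of the 456 miRNAs tested (-0.22), and the interval of every miRNA shown includes 0.

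Single sequences were tested as well. Of the member sequences averaging at least 1 CPM, 46 of miR-320-3p, 25 of miR-484, 10 of miR-877-5p, 12 of miR-877-3p and 11 of miR-1224-5p were tested by limma among 14287 sequences, and 0 of them had an unadjusted p under 0.05, where 10.1% of all sequences did (0.0420% after adjustment). The lowest p of a member sequence, for miR-320-3p, was 0.0855 before adjustment in this limma fit.

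Other miRNAs described as made without Drosha, from introns or small nucleolar RNAs, were read from the same fit. Of 12 listed names 9 were tested, and 0 of 9 had an unadjusted p under 0.05 in limma, beside 16.2% of all miRNAs tested. Their median log2 change was -0.32 (-0.11 after rescaling), beside -0.22 (-0.01) over all, and 8 were negative and 1 was positive, where 68.4% of all were negative. Of the 9, 4 were lower in both 18-month libraries, a share near the 41.4% of all miRNAs. miR-1981-5p, from an intron of Marc2, had 104 and 84.9 CPM at 2 months, against 63.8 and 68.8 CPM at 18 months, a log2 change of -0.50 (SE 0.23, limma adjusted p = 0.33). miR-1224-3p, the partner strand of miR-1224-5p, had 15.3 and 22.5 CPM at 2 months, against 19.5 and 31.9 CPM at 18 months, a log2 change of 0.41 (SE 0.35, limma adjusted p = 0.520). The other 3 strands that were lower in both 18-month libraries were miR-3102-3p (log2 change -0.43), miR-1839-5p (-0.40) and miR-1981-3p (-0.32). The log2 changes of miR-702-3p (-0.34), miR-664-5p (-0.20), miR-1839-3p (-0.10) and miR-664-3p (-0.07) came from ages that overlapped. miR-320-5p, miR-702-5p and miR-3102-5p were below 10 CPM on average and were not tested.

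Each member was also set beside the tested miRNAs whose levels ran most alike over the 4 libraries, by the Euclidean distance of log2(CPM + 1) values centred on their mean. The nearest to miR-320-3p were miR-184-3p (distance 0.019) and miR-30d-5p (0.109). miR-484 lay nearest to miR-345-5p (0.091) and miR-181a-2-3p (0.097). miR-877-5p lay nearest to miR-431-5p (0.033) and miR-212-3p (0.060), and miR-877-3p to miR-195a-5p (0.057) and miR-34c-3p (0.061). For miR-1224-5p these were miR-1306-5p (0.053) and miR-132-3p (0.066). With 4 libraries such likeness describes these libraries only.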

How the data were processed

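Small RNAs bound to Ago proteins were sequenced from 4 brain libraries, 2 from 2-month-old and 2 from 18-month-old BL6 mice. Per the methods, the authors trimmed the reads (Trim Galore per the processing notes), removed rare reads, matched the rest to mouse small RNAs by BLAST, removed artificial sequences and deposited CPM, that is each sequence scaled to 1000000 reads a library. The genome build and versions are not given in the sources used here. The authors also deposited the sum of the 4 libraries and, for each 6mer seed, a viability score averaged over 3 mouse cell lines. The sum was used only to find what 1 read is worth. Every nonzero value (100%) was a whole number of reads within 0.02 read, which gave 9067007 to 11388999 reads a library.

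Sequences were summed by miRNA name. The 456 names averaging at least 10 CPM were tested with limma 3.58.1 (R 4.3.3) on log2(CPM + 1) with an intensity trend, age as the factor and an unadjusted p under 0.05 as the threshold of the study, with Benjamini-Hochberg values beside it. The study does not name its test. Sequences averaging at least 1 CPM were tested in the same way. edgeR 4.0.16 and DESeq2 1.42.0 on the recovered reads, rescaling, other filters and pseudocounts, a replicate block and leaving out each library were alternatives. Shares and ratios of 2 libraries against 2 were compared by two-sided exact permutation tests, which cannot go below p = 0.33. The 5′ starts were placed by bases 6 to 15 of the most abundant sequence of a name, and 3′ ends by exact matches to RefSeq hairpins (GRCm38.p6). Introns were those of GENCODE. Scripts were tested on simulated data.

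All 5 members were named, with 12 other listed miRNAs, the 4 most abundant strands of hairpins that equal an intron and the nearest patterns. The members and lists were chosen with earlier results of these data known.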

Additional observations from a re-analysis of the deposited data

Results flagged for a closer look

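Some reads were assigned to a member's hairpin without the name of a mature strand, and they enter none of the comparisons above. For mir-320 these were 41 sequences with 7.24 and 7.03 CPM at 2 months, against 7.38 and 5.29 CPM at 18 months, a mean of 6.74 CPM. For mir-484 they were also 41 sequences, with 9.05 to 11.4 CPM in the 4 libraries and a mean of 10.3 CPM. Both means are above what 3 reads are worth (0.263 to 0.331 CPM). mir-1224 had 3 such sequences with 2 to 5 reads a library, and mir-877 had 0. Groups of 2 libraries are too small for a test of outlying samples.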

How the results depend on the processing

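No member passed an unadjusted p under 0.05 in any alternative run (72 values, p from 0.151 to 0.989), and 10 of the 72 changed sign. Over all miRNAs, 74 of 456 passed in limma, 125 of 1029 without a filter, 43 of 273 with a mean of at least 100 CPM (where 2 members were tested), 1 after adjustment, and 55 to 74 when 1 library was left out, where a lone library was assumed to vary like the other age. Of the calls, 25.7% were higher at 18 months on the CPM scale, 60.9% after rescaling, 62.9% in edgeR (62 calls) and 62.3% in DESeq2 (69 calls, 19 after adjustment, against 0 in edgeR). The log2 change of miR-484 was 0.17 after rescaling, 0.20 in edgeR and 0.19 in DESeq2, that of miR-1224-5p was 0.01 in edgeR, and that of miR-320-3p was -0.01 for its most abundant sequence alone. Leaving out 1 library gave -0.19 to 0.25 for miR-320-3p, -0.28 to 0.19 for miR-484, -0.51 to -0.16 for miR-877-5p, -0.03 to 0.06 for miR-877-3p and -0.36 to -0.07 for miR-1224-5p. The cause of the changes of sign was not tested. Counting only sequences averaging at least 1 CPM moved the main start of miR-320-3p to 95.7% and of miR-484 to 98.3%, and the added 3′ bases to 17.5% for miR-484, 23.8% for miR-877-5p and 16.8% for miR-1224-5p. The other 69 of 74 values of shares and viabilities moved by no more than the spread (standard deviation) between libraries. Many of these 69 left out 1 library, which cannot move a mean of 4 libraries by that much. Those values therefore do not show that a share is stable. The log2 difference between the ages in the ratio of miR-877-3p to miR-877-5p, 0.36, was 0.21 to 0.51 when 1 library was left out, an alternative chosen after seeing the data.

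With the replicate number as a block, 79 miRNAs passed (13 higher, 66 lower, 0 after adjustment) and 0 of 5 members. Same-numbered libraries share only a number, and the correlation of their deviations from the age means was 0.180.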

Other observations

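Of the mature strands of hairpins that equal an annotated intron, 14 of 30 names were in the table and 7 were tested. The 3p strands among them varied in their added 3′ bases. Their hairpins end with the intron, so every base past that end counts as added, which need not hold for other 3p arms. miR-1224-3p had additions on 88.8% and 88.7% of its reads at 2 months and on 89.3% and 84.1% at 18 months, and uridines only held 82.4% on average. miR-3547-3p, named after its values were seen, had 73.6%, 72.9%, 70.8% and 76.2% (uridines only 68.3%). miR-1981-3p, by contrast, had 17.9%, 14.0%, 14.3% and 23.2%, closer to the median of 14.1% of the 3p arms. The split of 5′ starts seen on miR-877-3p was not seen on these strands, whose main start held 98.0%, 100% and 91.3% of the reads. The cause of these differences was not tested.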
